A study of Mus musculus with 8 samples.

Results

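Cytochrome P450 genes are described here in mouse intestine and colon with and without overexpression of Nanog, a homeobox transcription factor of pluripotent cells. Genes were taken by name, those whose array symbol starts with Cyp and a number, leaving out Cyp27a1. Of these, members were chosen by the measured signal: in 1 or more of the 4 groups, the 2 arrays both had to lie above background, taken as a detection p-value below 0.01. This held for 33 of the 74 genes with such a name on the array, out of 8607 genes of any name that met the same condition. Because this rule reads the signal itself, whether a member was detected somewhere is no finding. The 13 members that entered through 1 tissue alone were thereby favoured to differ between the tissues. The rule did not force this, and Cyp2c70, which entered through colon with Nanog, had lower mean values in colon. The members nearest to the limit were Cyp2c70, which entered with a detection p-value of 0.008772 on the dimmer of its 2 arrays, and Cyp2d13 and Cyp4f15, both with 0.001253. Just outside lay Cyp26b1 with 0.015038, Cyp11a1 with 0.047619 and Cyp2a5 with 0.048872.

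Total RNA was measured on 8 Illumina bead arrays, 2 each for control intestine, Nanog intestine, control colon and Nanog colon, where control means labelled as lacking Nanog overexpression and Nanog as carrying it. The design text calls each pair biological replicates. The strain, age and sex of the mice, the promoter and the means by which Nanog was expressed, its duration, and whether both tissues came from the same animals are not stated in the labels. All values below are log2 intensities after background correction and quantile normalization, on which the 56 member values below background read 4.20 to 5.12. A difference is a log2 difference with its SE from a single spread per gene pooled over the 4 groups, and a gene was called where limma's moderated test gave an adjusted p under 0.05 over all 8607 genes. With 2 arrays per group, the number of arrays limits the precision of every value.

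P450 enzymes are haem proteins of the endoplasmic reticulum and mitochondria that insert oxygen into their substrates with electrons passed on by partner proteins. Families 1, 2 and 3 oxidise drugs, plant compounds and other foreign molecules, family 4 oxidises the ends of fatty acids and eicosanoids, and others act on sterols and bile acids. In the gut they meet swallowed compounds before the liver does, in the absorptive cells of the small intestine above all, and nuclear receptors such as CAR and PXR switch many of them on.

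The tissue labels were borne out by those of their markers that met the detection condition, here called tested. Of the listed enterocyte genes, Fabp1, Fabp2 and Slc10a2 did not meet it and were above background on 0 arrays. Of the colon list, Hoxb13 was above background on 0 arrays and Slc26a3 on 1, replicate 2 of colon without Nanog. On each of the 4 intestine arrays, 8 or 9 of 9 tested genes of the small intestinal enterocyte list were above background, with a summed linear level of 48700 to 76500, against 603 to 1640 on the colon arrays. The 8 tested genes of the colon epithelium list were all above background on each colon array, with a summed level of 12700 to 23900, against 345 to 2450 in intestine. Arrays of a group were not alike in other respects. Genes of the pancreatic acinar cell, which makes digestive enzymes, reached a summed level of 327000 on replicate 2 of intestine with Nanog and 235000 on replicate 2 of colon with Nanog, against 3410 to 29800 on the other 6 arrays. Replicate 2 of intestine with Nanog also stood out in a list of hepatocyte genes. Its 3 tested genes, Ttr, Serpina1b and Trf, summed to 12000 there and to 349 to 2320 elsewhere, and 7 of the 11 listed genes that entered no test were above background on it, against 0 or 1 on each other array. Albumin, the defining hepatocyte transcript, was above background on 0 arrays. The single Nanog probe was below background on all 8 arrays, those labelled as overexpressing Nanog included, with normalized log2 values of 4.27 to 4.52. It therefore gave no check of the Nanog labels, and every Nanog comparison below rests on the labels alone. Whether this probe lies in the transcript that was overexpressed was not tested.

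**Figure D1:**
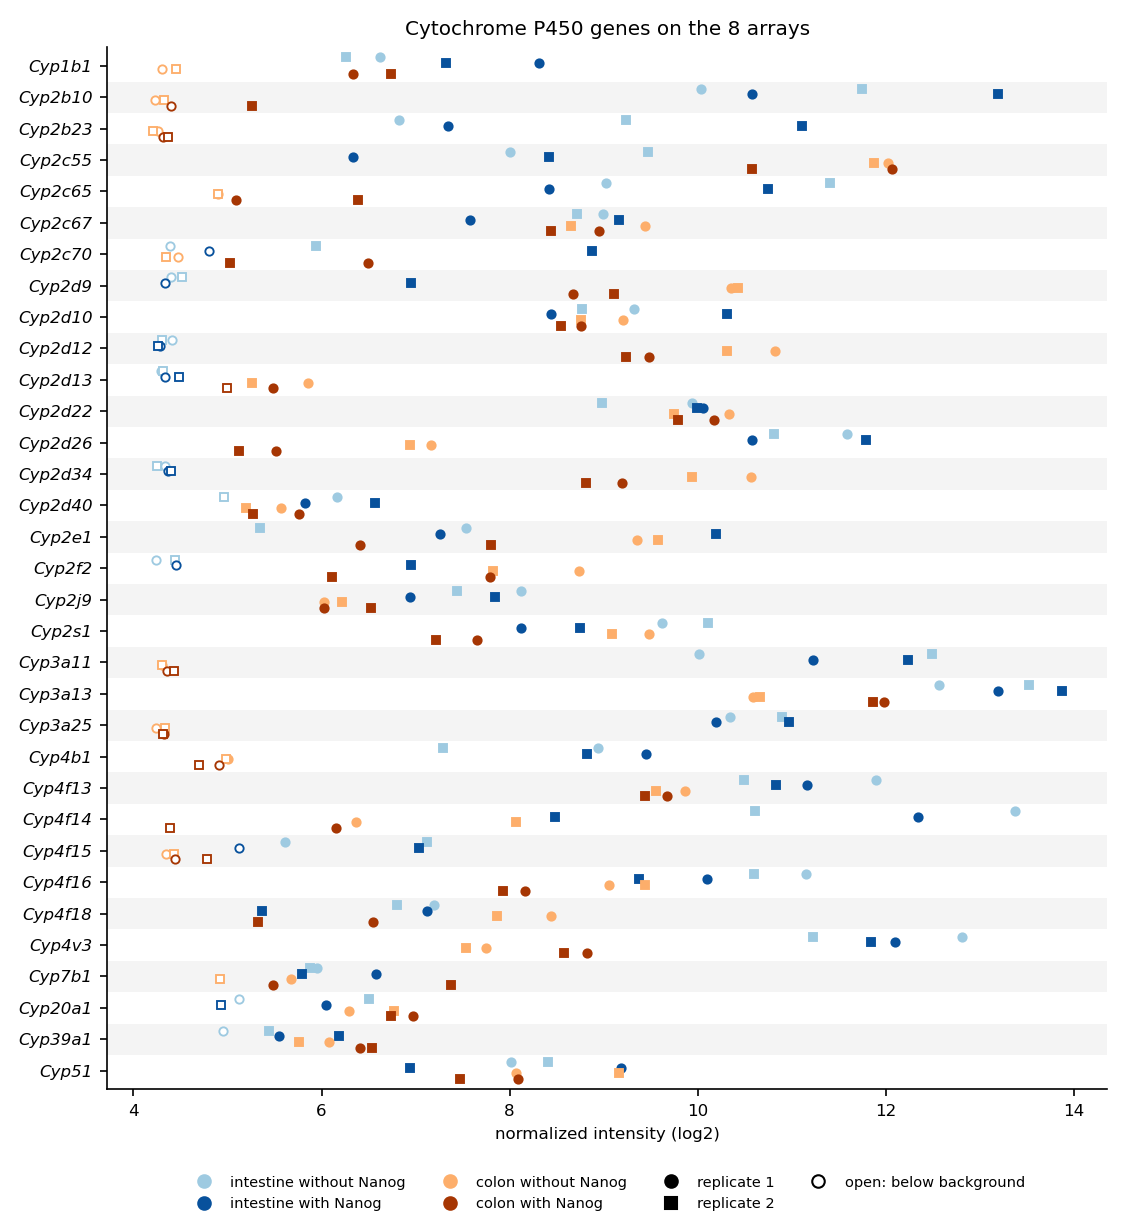
Normalized log2 intensity (horizontal axis) of the 33 P450 genes (rows) on each of the 8 arrays, coloured by group, with circles for replicate 1, squares for replicate 2 and open symbols for a signal below background. Cyp2d12, Cyp2d34 and Cyp2d9 sit to the right in colon, and Cyp3a11, Cyp3a25, Cyp2b10 and Cyp2b23 to the right in intestine.

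All 8 genes of the Cyp2d subfamily on the array were members, 5 of the 6 of Cyp4f, 4 of the 10 of Cyp2c, 3 of the 6 of Cyp3a, 2 of the 5 of Cyp2b and 1 of the 5 of Cyp2j. The single genes of the 1b, 2e, 2f, 2s, 4b, 4v, 7b, 20a, 39a and 51 groups were members as well. Both Cyp1a genes and all 4 Cyp4a genes fell outside. Of the 41 genes left out, 29 were above background on 0 arrays, among them Cyp1a1, the classic target of the aryl hydrocarbon receptor, Cyp24a1, which degrades active vitamin D, and Cyp7a1, the rate-limiting enzyme of bile acid synthesis. On replicate 2 of intestine with Nanog, 7 of the 41 were above background, and for 5 of them, Cyp2c37, Cyp2c39, Cyp2c50, Cyp4a14 and Cyp8b1, it was the only such array. Cyp8b1 is a sterol hydroxylase of bile acid synthesis in liver. Of the members, 24 were above background on both arrays in control intestine, 25 in Nanog intestine, 23 in control colon and 25 in Nanog colon, and 14 were so in all 4 groups. Cyp2d12, Cyp2d13 and Cyp2d34 were below background on every intestine array, and Cyp2b23, Cyp3a11, Cyp3a25 and Cyp4f15 on every colon array.

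The comparison of colon with intestine asks which P450 genes differ between the tissues. Without Nanog, 14 of the 33 members were called, 4 higher and 10 lower in colon, where 5.5% of all tested genes were called, 2.44% higher and 3.06% lower. Between the tissues with Nanog 12 members were called, 4 higher and 8 lower, against 6.65% of all tested genes, 3.18% higher and 3.46% lower. The median difference of the members was -0.61 without and -1.08 with Nanog, beside 0.11 and 0.10 over all tested genes. Both colon arrays lay above both intestine arrays for 9 members without Nanog and 7 with it, or 27.3% and 21.2%, against 30.2% and 35.1% of all tested genes. They lay below for 17 members in each comparison, or 51.5%, against 17.9% and 23.6% of all tested genes. The 2 comparisons share no array, and 11 members were called in both, each in the same direction: Cyp2d9, Cyp2d12 and Cyp2d34 higher in colon, and Cyp2b10, Cyp2d26, Cyp3a11, Cyp3a13, Cyp3a25, Cyp4b1, Cyp4f16 and Cyp4v3 lower. Across the 33 members the differences had the same sign in 28, or 84.8%, against 73.1% of all tested genes, and correlated with r = 0.94, against 0.83 over all tested genes. The same 8 arrays supply the normalization and each gene's pooled spread for both, so the 2 sets of calls are not independent. Of the 11 members called in both, 7 were above background on both arrays of a group in 1 tissue only (Cyp2b10, Cyp2d9, Cyp2d12, Cyp2d34, Cyp3a11, Cyp3a25 and Cyp4b1), as were 8 of the 14 called without Nanog and 7 of the 12 called with it. The rule let these in through the tissue where they are high and so favoured a difference. The counts, medians and shares in this comparison are therefore descriptions only. Leaving out either colon control array lowered the count without Nanog from 14 to 6, and leaving out a colon array with Nanog lowered the count with Nanog from 12 to 6 (replicate 1) or 7 (replicate 2). Cyp2d12, Cyp2d34, Cyp2d26, Cyp3a11 and Cyp3a25 stayed called in both comparisons whichever single array was left out. In such bulk tissue, fewer cells of a type and less RNA per cell cannot be told apart.

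**Figure D2:**
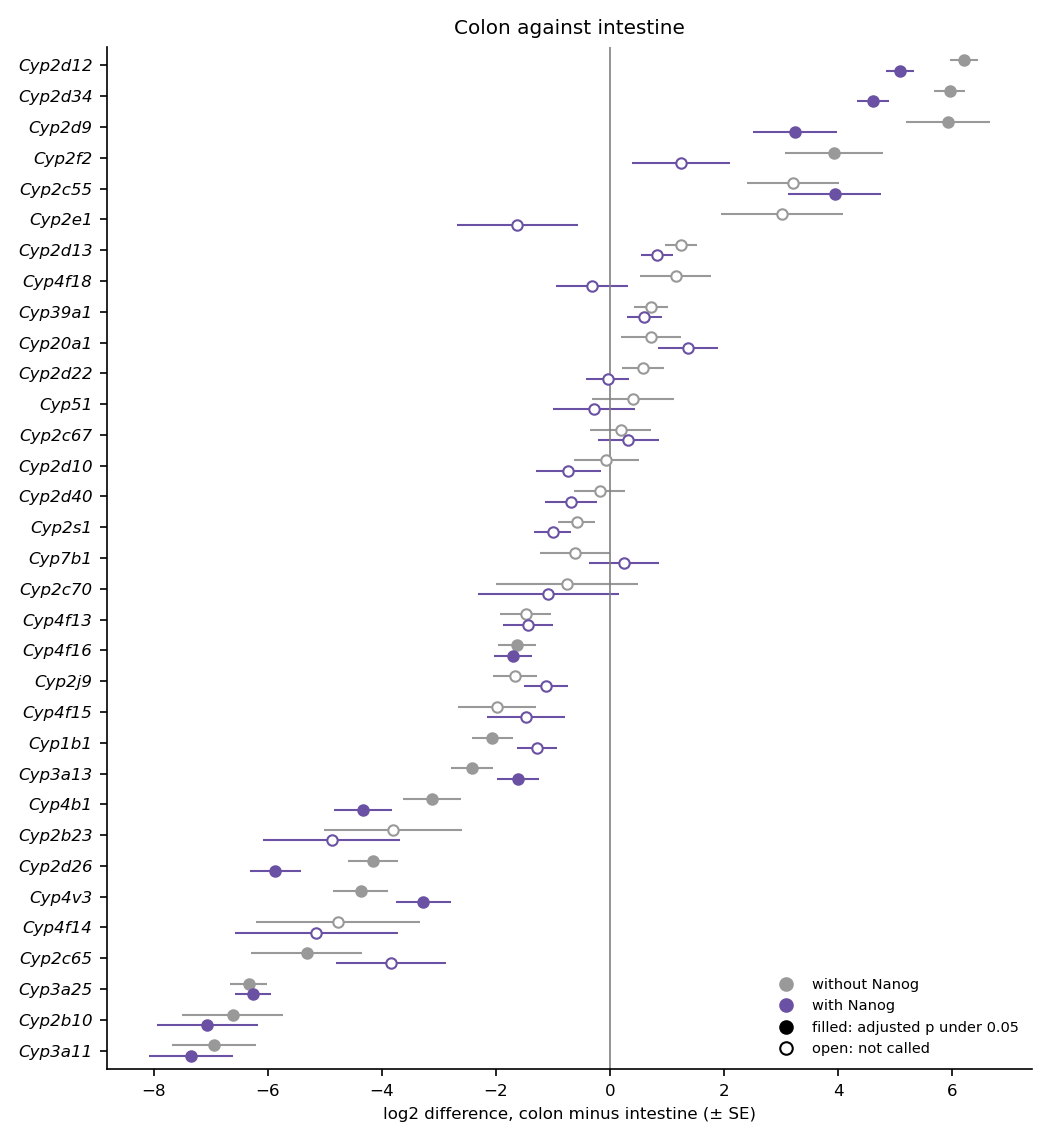
Log2 difference of colon minus intestine (horizontal axis, bars ± SE) for the 33 P450 genes, ordered by the difference without Nanog, in grey without and in purple with Nanog, with filled symbols where the adjusted p was under 0.05. Cyp2d12 stood at 6.21 and 5.09 at one end, and Cyp3a11 at -6.95 and -7.34 at the other.

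The Cyp2d subfamily held the members highest in colon over intestine and 1 member that was lower there. Its genes encode enzymes related to human CYP2D6, a drug oxidase, and in the mouse they form a large row of copies. The probes of such copies can bind each other's transcripts. The probe sequences were not used here and this was not tested, so a signal is given as that of its probe's gene. Cyp2d12 read 4.41 and 4.31 in control intestine, 4.29 and 4.26 in Nanog intestine, 10.82 and 10.31 in control colon, and 9.48 and 9.24 in Nanog colon. It was higher in colon by at least 41.7-fold between controls (log2 difference 6.21 ± 0.25, limma adjusted p = 8.06e-05) and by at least 17.6-fold between Nanog arrays (5.09 ± 0.25, adjusted p = 0.000106). Such a bound sets the bright group against the lowest signal above background on each dim array, or the dim probe's own signal where that is higher. Cyp2d34 read 4.33 and 4.25, then 4.37 and 4.40, in intestine without and with Nanog, and 10.56 and 9.94, then 9.19 and 8.81, in colon. The tissues did not overlap, and the gene was at least 33.5-fold higher in colon without Nanog (adjusted p = 9.47e-05) and at least 13.7-fold with Nanog (adjusted p = 0.000254).

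Cyp2d9, which encodes a steroid hydroxylase of male mouse liver, followed them in colon but not on every intestine array. It read 4.40 and 4.51 in intestine without Nanog and 10.35 and 10.43 in colon without Nanog, a difference of at least 36.9-fold (log2 difference 5.93 ± 0.73, limma adjusted p = 0.00575). With Nanog it read 4.34 and 6.96 in intestine and 8.67 and 9.11 in colon (3.24 ± 0.73, adjusted p = 0.0469). The value of 6.96 belongs to the array that was high in hepatocyte genes. Without that array the difference with Nanog was 4.55, and the part of those cells in the value was not tested. Leaving out a colon control raised the adjusted p without Nanog to as much as 0.0642, and leaving out any of the 4 colon arrays raised that with Nanog above the threshold, to as much as 0.245. Cyp2d13, a transcribed pseudogene in RefSeq, was detected in colon alone, with 5.86 and 5.26 without and 5.48 and 4.999 with Nanog, the last below background, and was not called (adjusted p = 0.0525 and 0.147).

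Cyp2d26 ran the other way. It read 11.58 and 10.81 in control intestine, 10.58 and 11.79 in Nanog intestine, 7.16 and 6.94 in control colon, and 5.52 and 5.12 in Nanog colon. It was lower in colon by -4.15 ± 0.44 (adjusted p = 0.00293) without Nanog and by -5.86 ± 0.44 (adjusted p = 0.000644) with Nanog, and its other 2 probes gave differences in the same direction. Cyp2d10, Cyp2d22 and Cyp2d40 were not called between the tissues, with differences from -0.18 to 0.58 without Nanog and from -0.73 to -0.04 with it. Cyp2d22 read 8.98 to 10.33 over the 8 arrays and Cyp2d10 8.44 to 10.31. In RefSeq the genes lie on chromosome 15 in the order Cyp2d22, Cyp2d10, Cyp2d9, Cyp2d12, Cyp2d34, Cyp2d40 and Cyp2d26, with at most 1 protein-coding gene between neighbours. The 3 genes high in colon were thus next to each other but for 1 gene, and the gene high in intestine lay at the end of the row.

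**Figure D3:**
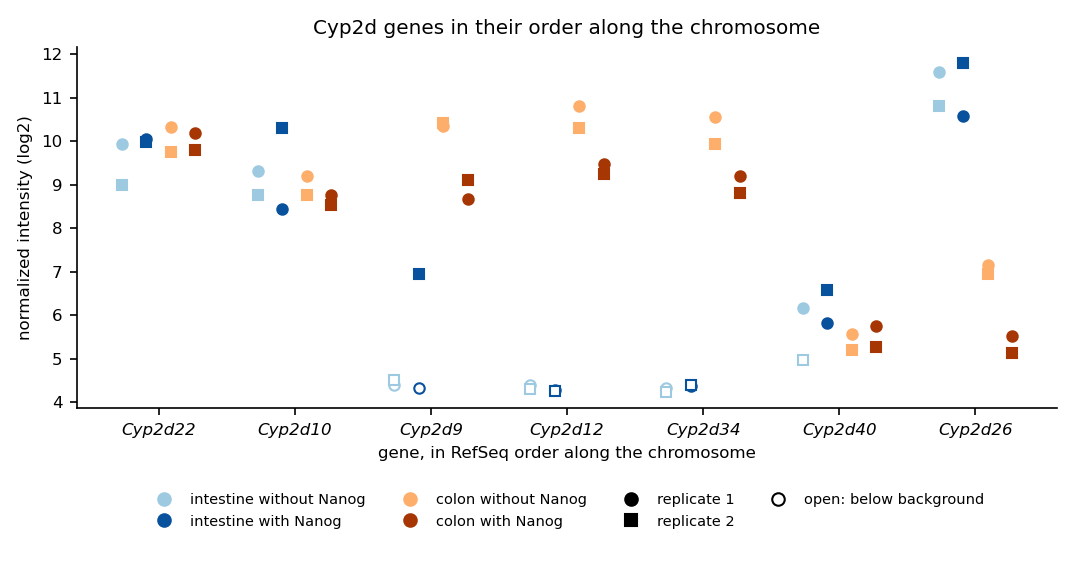
Normalized log2 intensity (vertical axis) of 7 Cyp2d genes in their order along the chromosome in RefSeq, on the 8 arrays, coloured by group, with open symbols for a signal below background. Cyp2d9, Cyp2d12 and Cyp2d34 were at 8.67 or above on every colon array, while Cyp2d26 was at 7.16 or below there and at 10.58 or above in intestine.

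The start regions of Cyp2d9 and Cyp2d26 are printed because these genes of one row differed between the tissues in opposite directions. Each runs from 250 bases before to 50 bases after the annotated start, 5′ to 3′ on the gene's strand, from RefSeq on build GRCm38.p6. Capitals mark matches, on either strand, to 5 motifs, TATAAA (the TATA box), GCGTG (the core bound by the aryl hydrocarbon receptor), TTTATNG (CDX-type), GTTAAT (HNF1-type) and TGNACTTTG (HNF4-type). Cyp2d9 lies at chr15:82452127-82452426 on the plus strand and Cyp2d26 at chr15:82794196-82794495 on the minus strand.
Cyp2d9: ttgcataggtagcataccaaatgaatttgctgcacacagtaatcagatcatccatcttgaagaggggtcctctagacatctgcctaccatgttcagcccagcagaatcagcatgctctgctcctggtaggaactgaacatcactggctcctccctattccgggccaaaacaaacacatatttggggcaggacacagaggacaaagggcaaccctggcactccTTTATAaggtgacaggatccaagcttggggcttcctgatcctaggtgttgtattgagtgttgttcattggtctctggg
Cyp2d26: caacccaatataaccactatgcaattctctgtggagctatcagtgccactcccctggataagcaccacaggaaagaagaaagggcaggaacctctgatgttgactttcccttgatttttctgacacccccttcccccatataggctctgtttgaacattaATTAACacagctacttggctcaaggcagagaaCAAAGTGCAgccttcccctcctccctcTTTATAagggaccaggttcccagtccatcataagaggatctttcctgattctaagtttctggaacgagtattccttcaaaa
Both held a TATA match, at -28 and -31 bases from the start. Cyp2d26 also held an HNF1-type match at -90 and an HNF4-type match at -58, CAAAGTGCA. Cyp2d9 held no exact match to either motif. Before its TATA match, however, Cyp2d9 held caaagggca, which is close to the HNF4-type letters but is no exact match and is not marked. The matches therefore do not show that an HNF4-type site sets these genes apart. The regions were 53.9% identical, and that of Cyp2d9 was 83.3% identical to that of Cyp2d10, which was not called between the tissues. Such a region was found for 27 of the 33 members, 31 regions in all, and an HNF4-type match stood in 16.1% of them, in Cyp2c65, Cyp2c67, Cyp2c70, Cyp2d26 and Cyp3a11, against 1.41% of all 32851 regions in the table. TATAAA, at any position and on either strand, stood in 32.3% against 13.6%, and the AHR core in 25.8% against 32.4%. The CDX-type motif stood in 9.68% against 10.9%, and the HNF1-type motif in 6.45% against 7.1%. A match is a run of letters, and its use in these tissues was not measured. TTTATNG and TATAAA can cover the same bases, as they did in Cyp2c70.

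The Cyp3a enzymes, which oxidise a large share of drugs and are induced through PXR, were lower in colon. Cyp3a11, the main drug-oxidising member in mouse, read 10.01 and 12.49 in intestine without Nanog and 11.22 and 12.24 with Nanog, and 4.31, 4.30, 4.36 and 4.43 on the colon arrays. Its tissues did not overlap, and it was at least 76-fold lower in colon without Nanog (log2 difference -6.95 ± 0.74, limma adjusted p = 0.0029) and at least 103-fold lower with Nanog (-7.34 ± 0.74, adjusted p = 0.00229). Cyp3a25, its neighbour on chromosome 5, read 10.34 and 10.89, then 10.19 and 10.97, in intestine without and with Nanog, and 4.24 to 4.33 on the 4 colon arrays. It was at least 49-fold lower in colon without Nanog (adjusted p = 0.000136) and at least 46.5-fold with Nanog (adjusted p = 0.000129). Cyp3a13 was detected on all 8 arrays, with 12.56 and 13.52 in control intestine, 13.19 and 13.87 in Nanog intestine, 10.59 and 10.66 in control colon, and 11.98 and 11.86 in Nanog colon. Its tissues did not overlap, with differences of -2.42 ± 0.37 (adjusted p = 0.0135) without and -1.61 ± 0.37 (adjusted p = 0.0487) with Nanog. Leaving out a colon control array raised the first adjusted p to as much as 0.109, and the second rose to 0.252 at most over the arrays left out.

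The Cyp2b genes are targets of CAR. Cyp2b10, the best known of them, read 10.03 and 11.75 in control intestine, 10.58 and 13.20 in Nanog intestine, 4.23 and 4.32 in control colon, and 4.40 and 5.26 in Nanog colon, the last above background. It was at least 59.2-fold lower in colon without Nanog (log2 difference -6.61 ± 0.89, limma adjusted p = 0.00808) and differed by -7.06 ± 0.89 with Nanog (adjusted p = 0.00585). A second Cyp2b10 probe, above background on 2 arrays, gave -0.56 and -1.36 for the same differences. Leaving out either colon control raised the adjusted p without Nanog to as much as 0.0837, and leaving out replicate 1 of colon with Nanog raised that with Nanog to 0.0552. Cyp2b23 read 6.83 and 9.24, then 7.34 and 11.11, in intestine and 4.20 to 4.37 in colon, without overlap. It was not called, with an adjusted p of 0.132 without and 0.0616 with Nanog, beside a spread of 1.71 and 2.66 (SD, n = 2) in the intestine groups.

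The Cyp2c genes, whose enzymes oxidise drugs and make epoxides and hydroxy acids from arachidonic acid, split by gene. Cyp2c55 read 8.01 and 9.47 in control intestine, 6.34 and 8.42 in Nanog intestine, 12.02 and 11.88 in control colon, and 12.06 and 10.57 in Nanog colon. All 4 colon arrays stood above all 4 intestine arrays, with a difference of 3.21 ± 0.81 without Nanog, which was not called (limma adjusted p = 0.0719), and of 3.94 ± 0.81 with Nanog (adjusted p = 0.035). The second call was lost without replicate 1 of intestine with Nanog, at an adjusted p of 0.105, and without any of the 4 colon arrays, at up to 0.205. Cyp2c65 lies next to Cyp2c55 on chromosome 19, with 0 protein-coding genes between, and was lower in colon. It read 9.02 and 11.40, then 8.41 and 10.74, in intestine without and with Nanog, 4.90 and 4.90 in colon without Nanog, both below background, and 5.09 and 6.39 with Nanog. It was at least 37-fold lower in colon without Nanog (-5.31 ± 0.97, adjusted p = 0.0261), while with Nanog the difference of -3.84 ± 0.97 was not called (adjusted p = 0.0664). Leaving out any single colon array raised the first adjusted p above the threshold, to between 0.0515 and 0.161.

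The start regions of this adjacent pair are shown for the same reason as above. Cyp2c55 lies at chr19:39006769-39007068 and Cyp2c65 at chr19:39060756-39061055, both on the plus strand of GRCm38.p6, with capitals for the motifs named above.
Cyp2c55: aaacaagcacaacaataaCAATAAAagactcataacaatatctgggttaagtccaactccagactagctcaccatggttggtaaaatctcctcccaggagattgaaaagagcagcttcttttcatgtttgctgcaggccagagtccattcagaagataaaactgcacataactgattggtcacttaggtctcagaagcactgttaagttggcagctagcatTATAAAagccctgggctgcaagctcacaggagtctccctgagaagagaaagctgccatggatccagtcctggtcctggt
Cyp2c65: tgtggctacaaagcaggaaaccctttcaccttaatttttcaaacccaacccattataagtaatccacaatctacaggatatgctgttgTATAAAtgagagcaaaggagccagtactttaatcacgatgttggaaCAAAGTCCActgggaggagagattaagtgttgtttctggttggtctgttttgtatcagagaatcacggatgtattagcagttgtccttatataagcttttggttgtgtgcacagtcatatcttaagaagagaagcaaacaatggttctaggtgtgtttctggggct
They were 56.0% identical. Cyp2c55 held TATAAA at -29 and a CDX-type match at -232, and Cyp2c65 held TATAAA at -162 and an HNF4-type match at -116. Cyp2c65 also held tatataag nearer to the start, which is no exact match and is not marked. The TATAAA positions therefore do not show that the TATA boxes of the pair lie apart. Of the remaining Cyp2c members, Cyp2c67 read 7.58 to 9.44 over the 8 arrays and was not called in any comparison. Cyp2c70, which in mouse makes muricholic bile acids, was above background on replicate 2 of both intestine groups, with 5.94 and 8.88, and on both colon arrays with Nanog, with 6.49 and 5.03. The highest of these values lay on the array that was high in hepatocyte genes.

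Family 4 was lower in colon where it was called. Cyp4v3, the mouse counterpart of the human fatty acid hydroxylase CYP4V2, read 12.81 and 11.22 in control intestine, 12.09 and 11.84 in Nanog intestine, 7.75 and 7.54 in control colon, and 8.82 and 8.58 in Nanog colon. The tissues did not overlap, with differences of -4.37 ± 0.48 (limma adjusted p = 0.00307) without and -3.27 ± 0.48 (adjusted p = 0.0107) with Nanog. The second rose to an adjusted p of 0.094 at most with 1 array left out, with replicate 2 of intestine with Nanog or either colon array with Nanog. Cyp4b1, which oxidises fatty acids and some plant toxins, read 8.94 and 7.30, then 9.45 and 8.82, in intestine, and 5.003, 4.99, 4.91 and 4.70 in colon, where the 5.003 of control replicate 1 alone was above background. It differed by -3.12 ± 0.51 without Nanog (adjusted p = 0.0176) and was at least 17.1-fold lower in colon with Nanog (adjusted p = 0.00459). Without either colon control the first adjusted p was as high as 0.121.

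The 5 Cyp4f members encode hydroxylases of fatty acids and leukotrienes. Cyp4f16 read 11.15 and 10.59 in control intestine, 10.10 and 9.37 in Nanog intestine, 9.06 and 9.43 in control colon, and 8.16 and 7.92 in Nanog colon. Colon was lower by -1.63 ± 0.33 without Nanog (limma adjusted p = 0.0389) and by -1.69 ± 0.33 with Nanog (adjusted p = 0.0312), the same direction as in its other probes. The 2 adjusted p rose to 0.218 and 0.202 at most with 1 array left out, including each colon array of the comparison. Cyp4f14, which inactivates leukotriene B, read 13.37 and 10.61 in control intestine, 12.34 and 8.48 in Nanog intestine, 6.37 and 8.07 in control colon, and 6.15 and 4.39 in Nanog colon, the last below background. The tissues did not overlap within either comparison, but the differences of -4.77 ± 1.43 and -5.14 ± 1.43 were not called (adjusted p = 0.117 and 0.0871). Cyp4f13, next to Cyp4f14 on chromosome 17, differed by -1.48 and -1.44 without a call. Cyp4f15 read 5.61 and 7.12, then 5.12 and 7.03, in intestine and 4.35 to 4.79 in colon, all 4 below background, with adjusted p of 0.161 and 0.265. Cyp4f18, a leukotriene hydroxylase of mouse neutrophils, stood at 1.15 without and -0.31 with Nanog, neither called. It read 7.19 and 6.80 in control intestine and 7.12 and 5.36 in Nanog intestine, and its colon values are given below.

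Of the single-gene subfamilies, 2 more were called between the tissues, both without Nanog. Cyp2f2, the naphthalene-oxidising enzyme of the airway, read 4.24 and 4.44 in intestine without Nanog and 8.74 and 7.82 in colon without Nanog. It was at least 8.55-fold higher in colon (log2 difference 3.94 ± 0.86, limma adjusted p = 0.047). With Nanog it read 4.46 and 6.95 in intestine and 7.79 and 6.11 in colon, and the difference of 1.25 was not called (adjusted p = 0.456). The 6.95 lies on the array high in hepatocyte genes, and without that array the difference with Nanog was 2.50. The call without Nanog was lost without either intestine control (adjusted p = 0.136 without replicate 1 and 0.0781 without replicate 2) and without any of the 4 colon arrays, at up to 0.257. Cyp1b1, an oxidase of oestrogens and polycyclic hydrocarbons, was at least 2.71-fold lower in colon without Nanog (-2.06 ± 0.36, adjusted p = 0.0221), at an adjusted p of up to 0.15 with 1 array left out, either colon control among them. Its values are given with the Nanog comparison below.

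Cyp2e1, which oxidises ethanol and small solvents, was not called but spread widely. It read 7.54 and 5.35 in control intestine, 7.26 and 10.19 in Nanog intestine, 9.35 and 9.58 in control colon, and 6.41 and 7.80 in Nanog colon. Colon stood above intestine without Nanog by 3.02 ± 1.06 (adjusted p = 0.167), and with Nanog the arrays overlapped. The 10.19 was again on the array high in hepatocyte genes, and without it the effect of Nanog in intestine was 0.81 in place of 2.28. Adipocytes express Cyp2e1 as well. The 4 tested genes of an adipocyte list summed to 1840 and 3080 in colon without Nanog and to 228 and 320 with Nanog, and to 605 to 1060 in intestine, and the part of either cell type in the Cyp2e1 signal was not tested. Cyp51, the lanosterol demethylase of cholesterol synthesis, Cyp7b1 and Cyp39a1, oxysterol hydroxylases, Cyp20a1, a P450 of little known function, and Cyp2j9, of an arachidonate epoxygenase subfamily, were not called between tissues. Their differences ran from -1.66 for Cyp2j9 to 0.73 for Cyp39a1 without Nanog and from -1.11 for Cyp2j9 to 1.37 for Cyp20a1 with Nanog.

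The comparison of arrays with and without Nanog asks which P450 genes change with Nanog. In intestine 0 of 33 members passed limma's test, where 0.163% of all tested genes did (0.139% higher and 0.0232% lower), with 3 members at an unadjusted p under 0.05, or 9.09% of the members against 8.69% of all tested genes. In colon 0 members passed, where 0.221% of all tested genes did (0.151% higher and 0.0697% lower), with 8 members at an unadjusted p under 0.05, or 24.2% of the members against 12.5% of all tested genes. On average of both tissues 2 members passed, Cyp1b1 higher and Cyp2s1 lower with Nanog, where 1.2% of all tested genes did, 0.72% higher and 0.476% lower. The median difference of the members was 0.10 in intestine and -0.15 in colon, against -0.01 for all tested genes in both. The Nanog arrays lay wholly above the controls for 6 members in intestine and 10 in colon, and wholly below for 3 and 12, against 17%, 26.3%, 15.5% and 26.6% of all tested genes, or 18.2%, 30.3%, 9.09% and 36.4% of the members. In both tissues at once they lay above for Cyp1b1 and Cyp39a1 and below for Cyp2d12, Cyp2s1 and Cyp4f16, against 7.95% and 6.96% of all tested genes, and Cyp2d12 was below background in intestine. The sign of the difference was the same in both tissues for 19 of 33 members, or 57.6%, against 65.4% of all tested genes, and the differences correlated with r = 0.27 over the members and 0.52 over all tested genes.

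**Figure D4:**
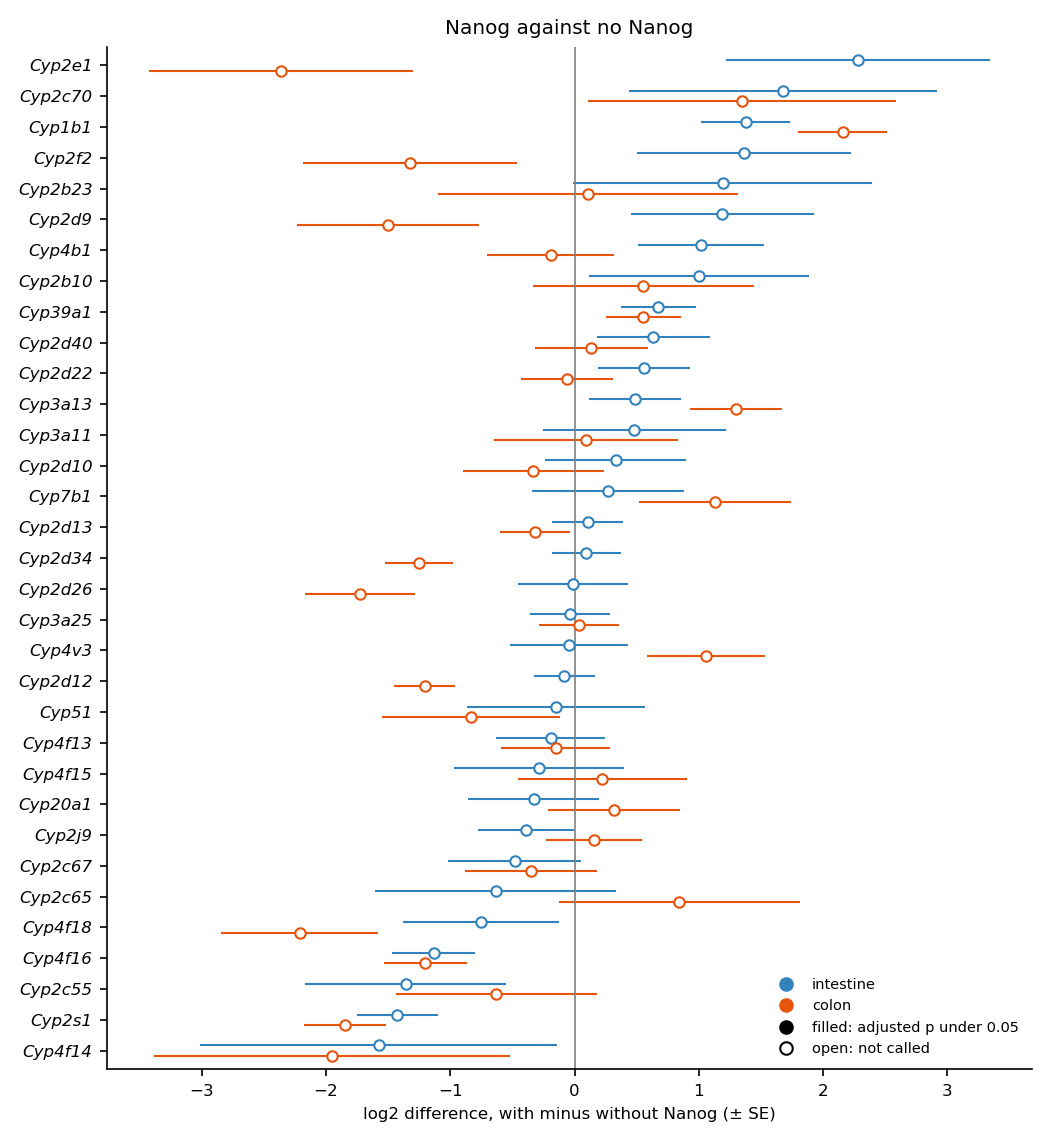
Log2 difference with minus without Nanog (horizontal axis, bars ± SE) for the 33 P450 genes, in blue for intestine and in orange for colon, ordered by the difference in intestine, with open symbols for an adjusted p of 0.05 or more in that tissue. No member was called in a single tissue, Cyp1b1 lay to the right and Cyp2s1 to the left in both tissues, and Cyp2e1 lay on opposite sides.

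Cyp1b1 read 6.62 and 6.26 in control intestine, 8.31 and 7.32 in Nanog intestine, 4.31 and 4.45 in control colon, both below background, and 6.34 and 6.73 in Nanog colon. In each tissue both Nanog arrays were higher than both controls. The average difference was 1.77 ± 0.25 (limma adjusted p = 0.0347), at least 2.74-fold with the colon controls held at their background limit, and it was made of 1.38 in intestine (adjusted p = 0.301) and 2.16 in colon (adjusted p = 0.0871, at least 2.9-fold). Cyp1b1 is known from stromal cells, and 12 fibroblast and matrix genes summed to 8820 and 9450 in control intestine, 16200 and 8320 in Nanog intestine, 15900 and 17100 in control colon, and 32200 and 30200 in Nanog colon. The part of these cells in the Cyp1b1 signal was not tested. The call was lost without replicate 1 of intestine with Nanog (adjusted p = 0.0511) and without any of the colon arrays (up to 0.156).

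Cyp2s1, a P450 of epithelia outside the liver that is also induced through the aryl hydrocarbon receptor, read 9.62 and 10.11 in control intestine, 8.12 and 8.75 in Nanog intestine, 9.48 and 9.09 in control colon, and 7.66 and 7.21 in Nanog colon. Both Nanog arrays were below both controls in each tissue. The average difference was -1.64 ± 0.23 (3.11-fold, limma adjusted p = 0.0342), with -1.43 in intestine (adjusted p = 0.223) and -1.85 in colon (adjusted p = 0.0978). Without replicate 1 or replicate 2 of intestine with Nanog, or without any of the colon arrays, the adjusted p was above the threshold, 0.151 at most. The start regions of both are printed, since they were the members called with Nanog and both are known targets of the aryl hydrocarbon receptor. Cyp1b1 lies at chr17:79715012-79715311 and Cyp2s1 at chr7:25816476-25816775, both on the minus strand of GRCm38.p6.
Cyp1b1: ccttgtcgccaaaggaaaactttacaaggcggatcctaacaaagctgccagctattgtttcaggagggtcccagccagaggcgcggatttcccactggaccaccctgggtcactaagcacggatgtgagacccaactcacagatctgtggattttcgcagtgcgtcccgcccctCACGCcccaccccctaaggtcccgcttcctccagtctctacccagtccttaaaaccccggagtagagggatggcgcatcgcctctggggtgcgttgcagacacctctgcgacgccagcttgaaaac
Cyp2s1: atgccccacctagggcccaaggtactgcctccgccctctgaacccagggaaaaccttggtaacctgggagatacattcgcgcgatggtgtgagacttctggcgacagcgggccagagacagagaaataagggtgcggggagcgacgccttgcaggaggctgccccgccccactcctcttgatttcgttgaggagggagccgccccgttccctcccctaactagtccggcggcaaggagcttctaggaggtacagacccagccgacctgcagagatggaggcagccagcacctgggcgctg
GCGTG stood once in Cyp1b1, on the opposite strand at -76, and none of the 5 motifs stood in Cyp2s1. The receptor's own gene, Ahr, was above background on 0 arrays, as were Cyp1a1 and Cyp1a2. Of 4 other tested target genes of the receptor, 0 were called, and Nqo1 (-1.23, adjusted p = 0.463) and Aldh3a1 (-2.09, adjusted p = 0.391), both detoxifying enzymes, had values below 0 on average. On replicate 2 of intestine without Nanog alone, Aldh3a1 read 10.20, against 4.30 to 6.38 on the other arrays.

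Cyp4f16 had the next smallest p, with an average difference of -1.17 ± 0.24 (limma adjusted p = 0.0765), and its Nanog arrays were below the controls in both tissues. Of the 22 members whose Nanog and control arrays did not overlap in colon, 10 higher and 12 lower, none was called there. Among the lower were Cyp2e1, -2.36 ± 1.06 (adjusted p = 0.423), Cyp4f14, -1.95 ± 1.43 (adjusted p = 0.626), Cyp4f18, -2.21 ± 0.63 (8.43 and 7.86 without, 6.54 and 5.32 with Nanog, adjusted p = 0.242), and Cyp2d26, -1.73 ± 0.44 (adjusted p = 0.212). No list of neutrophil genes was used beside Cyp4f18. In colon the 6 tested B and plasma cell genes summed to 2300 and 1640 without and 281 and 249 with Nanog. The 5 tested T cell genes summed to 504 and 220, then 140 and 135, and the adipocyte genes given above were lower as well. The 6 tested macrophage genes did not fall alike, with 3710 and 4300, then 3690 and 6280. The part of these cells was not tested. Cyp2d9, Cyp2d12 and Cyp2d34 had lower values on the Nanog arrays in colon, without a call (adjusted p = 0.467, 0.118 and 0.152), so that the Cyp2d genes high in colon and Cyp2d26 all read lower on both Nanog arrays than on both controls. Cyp3a13 and Cyp4v3, both lower in colon than in intestine, read higher on both colon arrays with Nanog, by 1.30 ± 0.37 (adjusted p = 0.242) and 1.06 ± 0.48 (adjusted p = 0.423). These are values without a call.

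Whether the effect of Nanog differed between the tissues was tested by the difference of the 2 effects. It was called for 0 members and 0% of all tested genes, and every member had a limma adjusted p of 0.998. At an unadjusted p under 0.05 were 5 members, or 15.2%, against 361 of all tested genes, or 4.19%. The largest was that of Cyp2e1, with -4.64 ± 1.50 (colon minus intestine), and -3.17 without replicate 2 of intestine with Nanog.

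Replicates of a group were set against each other for the P450 genes and for all tested genes. A difference over 1 log2 unit between the 2 replicates was seen for 14 members in intestine without Nanog, or 42.4%, against 15.8% of all tested genes, and for 17 members in intestine with Nanog, or 51.5%, against 9.91%. In colon it was seen for 2 members without Nanog, or 6.06%, against 5.29%, and for 8 with Nanog, or 24.2%, against 2.75%. Of the 4 intestine arrays, replicate 2 with Nanog gave the highest normalized value for 15 members, or 45.5%, against 22.6% of all tested genes. Among these, Cyp2d13 and Cyp2d34 were below background on all 4. Before normalization some were brighter elsewhere, such as Cyp2d26, at 2376 on this array and 4265 on control replicate 1. Others were not, such as Cyp2b10, at 8187 against 3945 on control replicate 2. The array had the lowest median intensity, 84.6, and the part of normalization in these ranks was not tested. This array was also the one high in hepatocyte and pancreatic genes, and it bore the highest intestine values of Cyp2c70, Cyp2d9, Cyp2e1 and Cyp2f2. The part of hepatocytes in these signals was not tested.

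In intestine the replicates differed in the same direction with and without Nanog for 24 of 33 members, or 72.7%, against 58.5% of all tested genes, with r = 0.50 over the members and 0.47 over all tested genes. The replicate 2 arrays were higher in Cyp2b10 (by 1.72 without and 2.62 with Nanog), Cyp2b23 (2.42 and 3.77), Cyp2c65 (2.38 and 2.33), Cyp2c55 (1.46 and 2.08) and Cyp3a11 (2.48 and 1.02). The replicate 1 arrays were higher in Cyp4f14, with differences of -2.76 and -3.86, and in Cyp4b1, with -1.64 and -0.63. Of the 9 tested enterocyte genes, 4 were higher on the replicate 1 arrays in both intestine groups (Sis, Slc5a1, Fabp6 and Anpep), 1 was higher on the replicate 2 arrays in both (Apoa1), and 4 differed in direction between the groups. Anpep, a brush border peptidase named after its values were seen, read 13.81 and 12.98 on the replicate 1 arrays without and with Nanog and 10.16 and 10.02 on the replicate 2 arrays. The labels do not state where along the intestine each sample was taken, and its part in these differences was not tested. In colon the direction was the same with and without Nanog for 23 of 33 members, or 69.7%, against 51.9% of all tested genes. The replicate differences there correlated with r = -0.05 over the members and 0.144 over all tested genes.

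**Figure D5:**
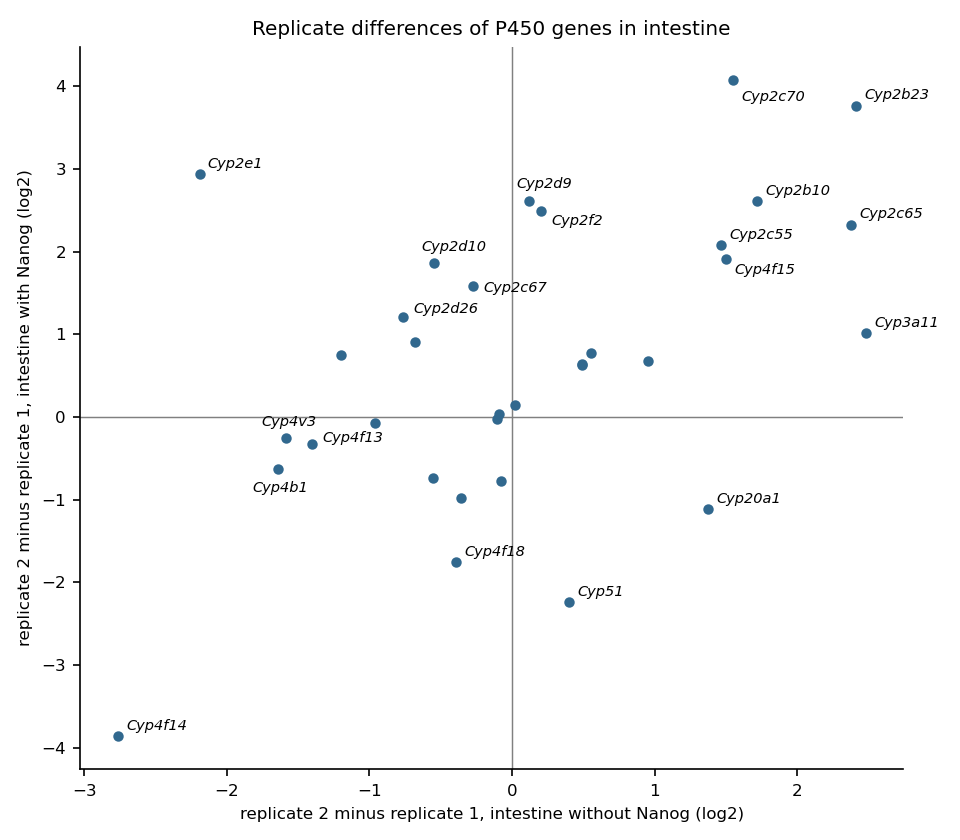
Difference of replicate 2 minus replicate 1 (log2) in intestine without Nanog (horizontal axis) and with Nanog (vertical axis) for the 33 P450 genes, 1 point each. Cyp2b10, Cyp2b23, Cyp2c65 and Cyp3a11 lie at the upper right and Cyp4f14 at the lower left, while Cyp2e1, at -2.19 and 2.94, lies at the upper left.

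P450 enzymes work with partner proteins, which the array covered only in part. Of the listed partners, Por, Fdx1l, Fdxr and Pgrmc2 were not found on the array, and Cyb5r2 and Fdx1 were above background on 0 arrays. Of 6 tested partner genes, 4 were called lower in colon than in intestine without Nanog, against 3.06% of all tested genes. They were Cyb5a (log2 difference -1.72, limma adjusted p = 0.0304) and Cyb5b (-1.24, adjusted p = 0.0346), which encode forms of cytochrome b5, its reductase Cyb5r3 (-1.70, adjusted p = 0.0385), and Pgrmc1 (-1.60, adjusted p = 0.0261), a haem-binding P450 partner. With Nanog, Cyb5a was called (-1.44, adjusted p = 0.0484). For Nanog on average 0 of the 6 were called. Of 10 genes of haem synthesis and turnover 0 were called in any of the 6 contrasts, Alas1, the rate-limiting enzyme of haem synthesis, being nearest at -0.84 between tissues with Nanog (adjusted p = 0.0744). The medians of the 2 lists between tissues without Nanog were -1.42 and -0.01, beside 0.11 over all tested genes.

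Among 16 tested regulators of P450 genes, Nr1i3, which encodes CAR, read 8.13 and 7.77, then 6.90 and 7.98, in intestine without and with Nanog and 4.44 to 4.75 in colon, below background on both arrays of each colon group. It was at least 7.72-fold lower in colon without Nanog (limma adjusted p = 0.00359) and at least 5.28-fold lower with Nanog (adjusted p = 0.00679). Nr1i2, which encodes PXR, was lower in colon with Nanog, by -1.37 ± 0.23 (adjusted p = 0.0187), and not called without it (-0.19, adjusted p = 0.698). Ppara, which encodes a fatty acid receptor, was at least 1.55-fold lower in colon with Nanog (adjusted p = 0.0146). With Nanog on average, 2 regulators rose, Nr5a2, a receptor that drives bile acid and steroid genes, by 1.204 ± 0.17 (adjusted p = 0.0324), and Nr1h4, the bile acid receptor FXR, by 1.11 ± 0.18 (adjusted p = 0.044). Hnf4a, a factor for many liver and gut P450 genes, was at -0.91 (adjusted p = 0.111). The median of the 16 was -0.20 for Nanog on average, beside -0.01 over all tested genes.

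Of 9 tested enzymes that share epoxide and eicosanoid substrates with P450s, Ephx2, the soluble hydrolase that opens epoxides made by Cyp2c and Cyp2j enzymes, was lower in colon. It read 10.65 and 10.62 in control intestine, 9.91 and 11.04 in Nanog intestine, 7.13 and 6.73 in control colon, and 7.12 and 6.97 in Nanog colon. The tissues did not overlap, with differences of -3.70 ± 0.37 (limma adjusted p = 0.00228) and -3.44 ± 0.37 (adjusted p = 0.0032). Alox12, a lipoxygenase, read 5.51 and 5.55 in control intestine, 4.56 and 4.62 in Nanog intestine, 5.65 and 5.78 in control colon, and 4.37 and 4.73 in Nanog colon, with all 4 Nanog arrays below background. It fell with Nanog on average by at least 1.41-fold (limma adjusted p = 0.0349). No other gene of this list was called in these comparisons.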

How the data were processed

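RNA of 8 samples in 4 groups was read on Illumina bead arrays, and groups were taken from the sample titles. Per the labels, biotin-labelled cRNA was made from total RNA, while BeadStudio 3.2, lumi and RMA stand, unordered, in the submitters' processing notes. The deposited table without normalization holds, for 25697 probes, an intensity neither background-corrected nor scaled between arrays, and a detection p-value against negative control beads, whose values move in steps of 1 in 798. The authors' normalized values, deposited on a log2 scale, served as an alternative.

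A normal-exponential background model (offset of 16) from limma 3.58.1, run in R 4.3.3, was applied before log2 and quantile normalization. Kept were 12064 probes whose 2 arrays in 1 or more groups both had a detection p-value below 0.01. Each of 8607 genes was represented by its brightest such probe. Symbols came from the array's annotation, updated through Entrez identifiers to GRCm38.p6, and 1719 probes had none. limma fitted the 4 group means to the 8 arrays together and its moderated test had 4 residual and 3.07 prior degrees of freedom, with Benjamini-Hochberg adjustment over all genes in each of 6 contrasts. Tested on simulated data, the fit called 87% of the genes given a log2 change of 2 for Nanog in intestine, and 78% in colon. It called 92.5% on average, 28.5% for the difference of the effects, and 89.5% and 83% for tissue without and with Nanog, in fits of 8607 genes. At a log2 change of 1 it called 16.5% for Nanog on average and 0% in each other contrast. The changed genes were drawn from all genes. P450 members differed more between replicates, so these shares do not measure the power for the members.

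Between 10652 and 11993 probes per array were above background, with a median intensity of 84.6 to 108. Replicates are called biological, and whether they came from separate animals is not stated, so p-values measure the spread between these samples. The replicate differences over all genes correlated between every pair of groups, with r = 0.468 between the intestine groups, 0.144 between the colon groups, 0.308 between the tissues without Nanog, 0.429 between them with Nanog, and 0.242 and 0.113 for the remaining pairs. The labels give no meaning to the numbers, and with 2 pairs per comparison the numbers were not taken as pairs. The members and the 21 lists of partner, regulator and cell type genes were chosen with earlier results of these data known. Values on each array, or their range, are given for the 21 members that were called or among the 20 largest differences. From the pathway lists, called genes and some with the smallest p are named. Some of these have values on each array and others a difference or bound alone. Ahr, Anpep, the hepatocyte genes and the listed genes that entered no test were named after their values were seen. Start regions came from RefSeq tables and were read with Python 3.11.15 and Biopython 1.88.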

Additional observations from a re-analysis of the deposited data

Results flagged for a closer look

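For 2 members every Nanog array lay above the controls in intestine and below them in colon. Cyp2f2 differed by 1.36 in intestine and -1.33 in colon, a difference of the effects of -2.69. Cyp2d34 differed by 0.10 in intestine, where all arrays were below background, and by -1.25 in colon, a difference of the effects of -1.35. The difference itself was tested with limma and gave an adjusted p of 0.998 for both. The intestine value of Cyp2f2 rests on replicate 2 with Nanog, and without that array it was 0.11.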

How the results depend on the processing

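No difference of a named member that was called changed direction under any alternative run. Called between tissues without Nanog were 14 members, against 9 with no detection filter and 4 of the 14 members left when detection on all 8 arrays was asked, and 6 to 17 with 1 array left out. Between tissues with Nanog 12 were called, against 5 with detection on all 8 arrays, 5 without the replicate 2 arrays of both Nanog groups (chosen after seeing the data), and 6 to 15 with 1 array left out. For Nanog in colon the 0 members became 1 with the authors' normalized values (Cyp1b1) and 4 with only the 4 colon arrays (Cyp1b1, Cyp2d26, Cyp2s1 and Cyp3a13), and stayed 0 to 0 with 1 array left out, as did Nanog in intestine and the difference of the effects. For Nanog on average the 2 calls became 1 with no background correction, 1 with an offset of 50, 1 with median scaling, 1 with detection on all 8 arrays, 0 with no detection filter, 0 without the replicate 2 Nanog arrays and 0 to 2 with 1 array left out. The calls of Cyp2d12, Cyp2d34, Cyp2d26 and Cyp3a25 in both tissue comparisons, and of Cyp3a11 and Cyp4v3 without Nanog, held under every alternative in which they were measured. With the replicate number as a block, Cyp2f2 was lost (adjusted p = 0.0571) and Cyp2b23 was gained between tissues with Nanog (-4.88, adjusted p = 0.0299), and no other call changed. The cause of these changes was not tested beyond what each setting removes. A lone array left in a group was assumed to vary like the other groups. Signals below background give bounds, not levels.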
